A study of Mus musculus with 72 samples.

Results

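A set of 10 genes known to respond to glucocorticoids were followed in the hippocampus of 72 mice in 8 groups: Sgk1, Ddit4, Cdkn1a, Tsc22d3, Fkbp5, Hif3a, Xdh, Plin4, Sult1a1 and Mertk. The members were taken by name, with earlier results of these data known. Counts of members beside shares of all probe sets are therefore descriptions, not independent tests. Each had exactly 1 probe set annotated to its symbol alone, so all 10 entered, of 18820 genes that the array covers in this way. Each group held 9 adult male C57BL/6J mice, 2 months old, single-housed under 12 h of light a day and handled on 3 days beforehand. The paper describes the 9 mice of a group as coming from 9 separate experiments, and the labels do not say which mice shared one. Trained mice received 1 foot shock of 2 s at 1.5 mA in a chamber, 3 h after lights on, and were killed after 30 min in FC30, after 4 h in FC4, after 12 h in FC12 and after 24 h in FC24. RT30 mice were trained likewise, returned to the chamber at 24 h for 5 min, and dissected 30 min after that test. Untrained mice that were only handled were dissected at the times of day of FC30 (CC30), FC4 (CC4) and FC12 (CC12). CC30 is also the time-of-day control of RT30 and FC24. The 12 h groups were the only ones taken in the dark. The labels name no transgene or drug, both hippocampi of an animal made up its sample, and a handled control does not separate the shock from the new context.

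Corticosterone, the main glucocorticoid of mice, is released after stress and also follows a daily rhythm that peaks around the start of the dark, active phase. It enters cells and binds the glucocorticoid receptor and, in hippocampus, the higher-affinity mineralocorticoid receptor. The occupied receptors move to the nucleus and regulate genes through short palindromic DNA elements or through other transcription factors. The known products of the 10 genes range from signalling regulators (Sgk1, Ddit4, Cdkn1a, Tsc22d3) and a co-chaperone of the receptor itself (Fkbp5) to a hypoxia-pathway subunit, metabolic enzymes, a lipid-droplet coat protein and a phagocytic receptor. Hormone levels were not measured on these arrays.

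Promoter sequences in RefSeq (GRCm38.p6) were found for 9 of the 10 genes, in 17 windows that run from 250 bases before to 50 bases after an annotated start. Both strands were searched for the palindromic glucocorticoid response element (AGAACA, then any 3 bases, then TGTTCT), for its arm TGTTCT, for the cAMP response element TGACGTCA and for the E-box CACGTG. The palindrome stood in 1 of the 17 windows, at 1 of the 6 annotated starts of Sgk1, and in 3 of all 32851 mouse windows (0.00913%). The arm stood in 5 of the 17 windows, belonging to 3 genes, Sgk1, Sult1a1 and Tsc22d3, and in 19.0% of all windows. The E-box was found for Fkbp5 and Sgk1 (7.15% of all windows), and in Sgk1 its last bases are also the first bases of an arm. TGACGTCA was found in 0 of the 17 windows and in 1.79% of all. The 3 stretches upstream of a start below come from the 3 genes in which the arm was found. Of these, Sgk1 was called higher 30 min after training or retrieval, and Tsc22d3 and Sult1a1 in the dark. A link between a motif and a time course was not tested. Capitals mark the palindrome in Sgk1 (chr10:21993640-21993889, plus strand) and the arm in Tsc22d3 (chrX:140600523-140600772, minus strand) and Sult1a1 (chr7:126676419-126676668, minus strand). A match is a description of the letters, and binding was not measured.
Sgk1: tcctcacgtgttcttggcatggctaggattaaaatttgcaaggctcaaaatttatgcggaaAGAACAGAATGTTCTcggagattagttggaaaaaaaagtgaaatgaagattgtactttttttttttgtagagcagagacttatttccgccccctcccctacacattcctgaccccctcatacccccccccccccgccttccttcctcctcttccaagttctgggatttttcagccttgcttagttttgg
Tsc22d3: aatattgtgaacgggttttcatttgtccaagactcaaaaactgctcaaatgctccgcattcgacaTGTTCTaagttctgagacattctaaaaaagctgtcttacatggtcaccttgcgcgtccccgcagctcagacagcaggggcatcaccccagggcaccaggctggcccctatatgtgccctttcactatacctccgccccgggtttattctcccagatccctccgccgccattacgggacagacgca
Sult1a1: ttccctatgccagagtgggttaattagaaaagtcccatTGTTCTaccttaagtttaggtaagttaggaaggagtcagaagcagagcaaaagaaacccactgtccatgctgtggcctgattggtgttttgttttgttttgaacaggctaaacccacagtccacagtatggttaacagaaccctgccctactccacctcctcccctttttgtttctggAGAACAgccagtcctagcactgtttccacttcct

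The deposited values are log2 signals summarised with RMA, a background correction and normalization between arrays. The part of each value that followed the first principal component of the 72 arrays was subtracted here. Groups were compared in pairs with limma, two-sided, and a gene was called where its p, adjusted after Benjamini-Hochberg across the 35556 probe sets, was under 0.1. A log2 difference of 1 is a doubling of signal, and signals of different probe sets are not comparable as levels. Array medians lay between 5.82 and 5.88, and the first component held 17.4% of the variance. The defining markers of the tissue were bright: the 3 pan-neuronal markers matched had a median rank at the 99.7th percentile of all probe sets, and the 4 pyramidal and 3 dentate granule cell markers at the 92.5th and 91.3rd. Of the 72 arrays, 6 stood apart from their groups on a principal component, and the calls of members that changed without them are named beside the results. The mean level of 5 choroid plexus markers differed widely between mice, from 5.90 to 8.93, and lay on average at 6.68 to 7.31 in the other groups and at 6.58 in CC30. In whole tissue, fewer cells of a type and less RNA per cell cannot be told apart.

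At 30 min after training, 2 of the 10 genes were higher in FC30 than in CC30, Sgk1 and Ddit4, while 0.186% of all probe sets were called higher. Both were also the 2 members called 30 min after retrieval, RT30 against CC30, again with 0.186% of all probe sets called higher. With the replicate number of the labels as a block in the fit, both RT30 calls were lost (limma adjusted p = 0.137 for Sgk1 and 0.296 for Ddit4). The FC30 call of Ddit4 was then lost too (limma adjusted p = 0.107). Over all probe sets the block left 47 called in RT30 against CC30, of 99 without it. It left 43 in FC30 against CC30, where 91 were called without it. The comparisons share the CC30 mice and are therefore given side by side.

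Sgk1 encodes the serum- and glucocorticoid-regulated kinase, which acts on ion channels and transporters. Its lowest, median and highest signals were 8.45, 8.57 and 8.64 in FC30 and 8.45, 8.64 and 8.73 in RT30, against 8.30, 8.37 and 8.50 in CC30. In both groups 8 of 9 mice lay above every CC30 mouse, and 1 mouse fell within the CC30 range. The log2 fold change was 0.20 ± 0.03 for FC30 (SE, limma adjusted p = 0.0117) and 0.24 ± 0.04 for RT30 (limma adjusted p = 0.00698). FC24 mice, trained a day earlier and not tested, spanned 8.35 to 8.46. RT30 against FC24 shares no mouse with FC30 against CC30, and here RT30 was higher by 0.24 ± 0.03 (SE, limma adjusted p = 0.00278), with 8 of 9 mice above every FC24 mouse. Sgk1 was the only member called in RT30 against FC24, where 0.121% of all probe sets were called higher. In FC30 against CC30 the choroid plexus markers had positive differences for 5 of 5 genes, with a median of 0.35 and 0 of 5 called. With their mean level as a covariate, the Sgk1 difference of FC30 was 0.19 (limma adjusted p = 0.109) and no longer called. In RT30 against FC24 all 5 markers had negative differences, with a median of -0.10 and 0 of 5 called. The part of these markers in the Sgk1 differences was not tested beyond the covariate.

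Ddit4, also known as REDD1, encodes a stress-induced inhibitor of the mTORC1 growth pathway. Its lowest, median and highest signals were 7.36, 7.54 and 7.69 in FC30 and 7.34, 7.58 and 7.70 in RT30, against 7.01, 7.14 and 7.49 in CC30. In both groups 7 of 9 mice lay above every CC30 mouse and 2 lay within the CC30 range. The log2 fold change was 0.32 ± 0.06 for FC30 (SE, limma adjusted p = 0.0446) and 0.33 ± 0.07 for RT30 (limma adjusted p = 0.0473). The RT30 call was lost without the arrays that stood apart (0.32, limma adjusted p = 0.102). FC24 spanned 7.12 to 7.53, and RT30 exceeded it by 0.24 ± 0.06 without passing the threshold (limma adjusted p = 0.217), although 9 of 9 RT30 mice lay above the FC24 mean.

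Cdkn1a encodes p21, an inhibitor of cyclin-dependent kinases. Its signals reached 7.03, 7.32 and 7.54 in FC30 and 7.09, 7.30 and 7.55 in RT30 (lowest, median and highest), against 6.97, 7.13 and 7.25 in CC30. Most RT30 mice (7 of 9) and 5 of 9 FC30 mice lay above every CC30 mouse, and the others lay within its range. Neither difference passed, at 0.16 ± 0.07 for FC30 (SE, limma adjusted p = 0.715) and 0.18 ± 0.05 for RT30 (limma adjusted p = 0.374). Tsc22d3 encodes GILZ, a leucine zipper protein through which glucocorticoids dampen inflammatory signalling. Its difference was 0.19 ± 0.05 in RT30 against CC30 (SE, limma adjusted p = 0.145), with 9 of 9 mice above the CC30 mean, and it was called without the arrays that stood apart (0.22, limma adjusted p = 0.0551). In FC30 the same difference was 0.11 ± 0.04 (SE, limma adjusted p = 0.525).

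**Figure D1:**
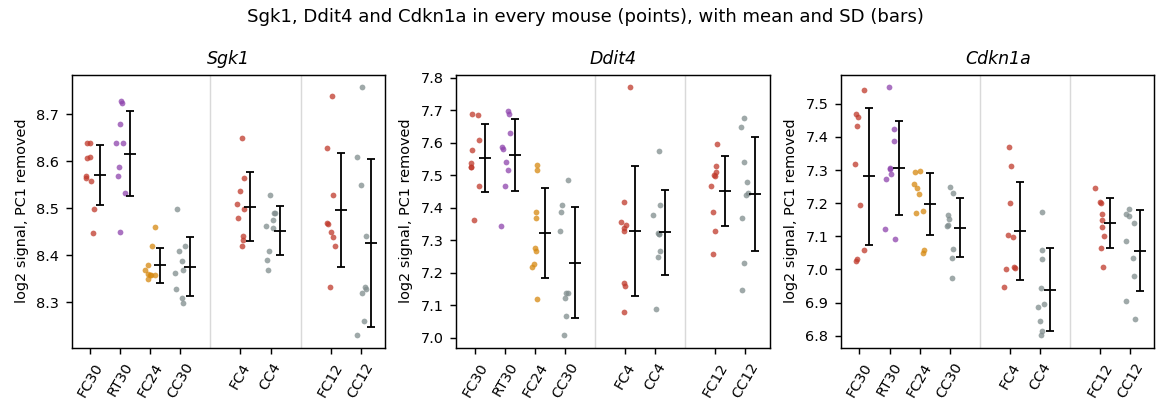
Log2 signal (vertical axes, first principal component removed) of Sgk1, Ddit4 and Cdkn1a in the 9 mice of each group, with mean and SD. FC30 and RT30 stand to the left of FC24 and CC30, and in Sgk1 8 of 9 mice of FC30 and of RT30 lie above all CC30 mice.

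The remaining 6 genes gave differences of -0.05 to 0.14 in FC30 against CC30 and of -0.01 to 0.18 in RT30 against CC30, and 0 of them were called. Fkbp5, which binds the receptor complex and lowers its affinity for hormone, differed by 0.03 ± 0.04 in FC30 (SE) and by 0.00 ± 0.06 in RT30. Mertk, a receptor tyrosine kinase through which glial cells and macrophages engulf debris, differed by -0.05 ± 0.05 and -0.01 ± 0.04. The median over the 10 members was 0.09 in FC30 and 0.15 in RT30, while the median over all probe sets was 0.00 in both comparisons. FC30 and RT30 were also set against each other directly: 0 members were called in RT30 against FC30 by limma (0% of all probe sets) or by the methods' t-test, 1 member had an unadjusted p under 0.05 (3.9% of all probe sets), and the 10 differences ran from -0.03 to 0.11.

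At 4 h no member was called in FC4 against CC4, and 0% of all probe sets were called in this comparison. All 10 differences were positive, with a median of 0.18, while 44.1% of all probe sets had a positive difference and their median was -0.01. By the methods' t-test 0 members passed as well, and 7 of the 10 had an unadjusted p under 0.05 in limma, against 5.35% of all probe sets. The 7 were Plin4, Xdh, Hif3a, Tsc22d3, Cdkn1a, Sult1a1 and Mertk. The 3 with differences nearest 0 were Fkbp5 (0.09 ± 0.06, SE), Sgk1 (0.05 ± 0.03) and Ddit4 (0.00 ± 0.08).

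Hif3a encodes the third alpha subunit of the hypoxia-inducible factor family, isoforms of which restrain the response to low oxygen. Its lowest, median and highest signals were 5.65, 5.92 and 6.03 in FC4, against 5.48, 5.60 and 5.79 in CC4. All but 1 of the FC4 mice lay above every CC4 mouse. The difference of 0.27 ± 0.05 (SE) had an unadjusted p of 4.08e-05, the fifth smallest of the array, and a limma adjusted p of 0.29. It was called at a limma adjusted p of 0.0719 when the first 2 principal components were removed.

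Xdh encodes xanthine dehydrogenase, the last enzyme of purine breakdown to uric acid. Its signals were 5.67, 5.92 and 6.27 in FC4, against 5.53, 5.58 and 5.76 in CC4 (lowest, median and highest), and 7 of 9 FC4 mice lay above every CC4 mouse. The difference was 0.30 ± 0.06 (SE, limma adjusted p = 0.426). Plin4 encodes perilipin 4, a coat protein of lipid droplets. Its signals were 4.97, 5.34 and 5.74 in FC4, against 4.82, 4.99 and 5.27 in CC4, and again 7 of 9 FC4 mice lay above every CC4 mouse. The difference was 0.34 ± 0.08 (SE, limma adjusted p = 0.877). The other 4 genes with unadjusted p under 0.05 had differences of 0.17 to 0.19, with 1 to 3 mice of FC4 above every CC4 mouse. Of the choroid plexus markers, 1 of 5 had a positive difference at 4 h, with a median of -0.17 and 0 of 5 called. Their part in the members' differences was not tested beyond the choroid plexus covariate.

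**Figure D2:**
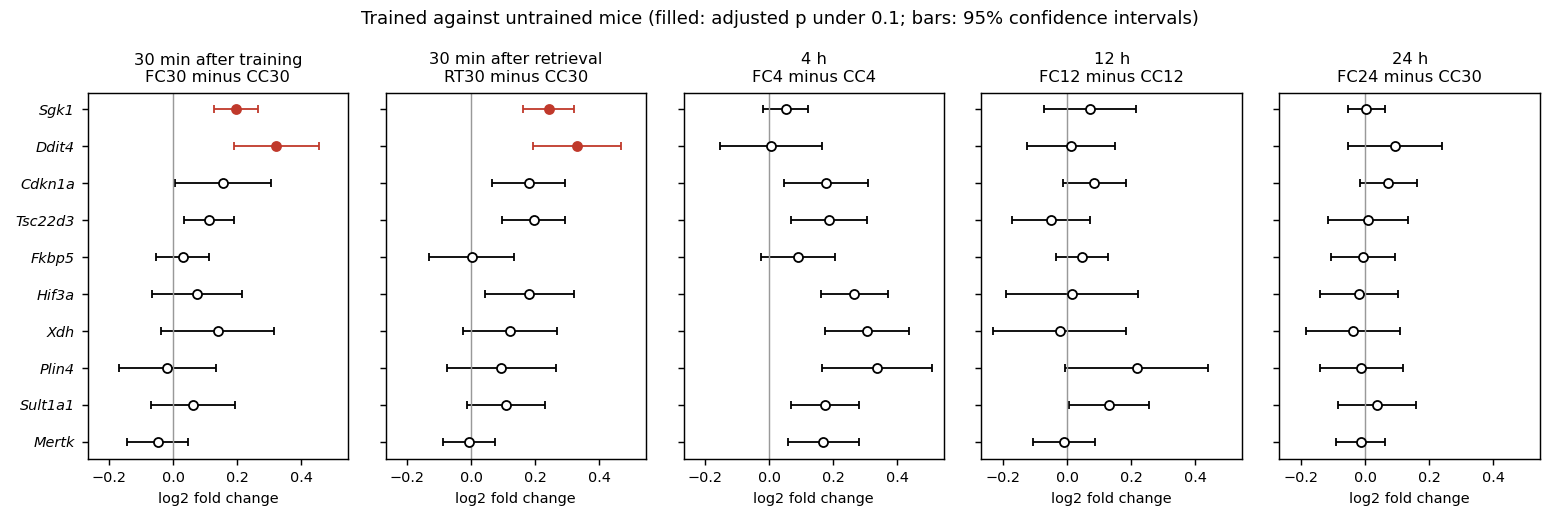
Log2 fold change (horizontal axes) of the 10 genes, trained minus untrained mice of the same time of day, with 95% confidence intervals over 9 mice a group. Filled points, Sgk1 and Ddit4 in the FC30 and RT30 panels, have a limma adjusted p under 0.1, while in the FC4 panel all 10 points are open and positive.

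The early and late differences were compared directly with an interaction term, FC30 minus CC30 against FC4 minus CC4. No member was called (0.045% of all probe sets were), and 5 members had an unadjusted p under 0.05, as had 7.12% of all probe sets. The difference of differences was positive for Sgk1, at 0.14 ± 0.04 (SE, limma adjusted p = 0.497), and Ddit4, at 0.32 ± 0.10 (limma adjusted p = 0.515). It was negative for Plin4, at -0.36 ± 0.11 (limma adjusted p = 0.504), Mertk, at -0.22 ± 0.07 (limma adjusted p = 0.536), and Hif3a, at -0.19 ± 0.09 (limma adjusted p = 0.654). With RT30 minus CC30 in place of the training difference, 0 members were called (0.0478% of all probe sets), 4 had an unadjusted p under 0.05 (5.13% of all probe sets), and the smallest p was that of Sgk1 (0.19 ± 0.05, SE, limma adjusted p = 0.357). For no member did the early and the 4 h difference differ after adjustment over the array. The timing of one member was not tested against that of another.

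By 12 h and 24 h after training, 0 members were called by limma or by the methods' t-test in FC12 against CC12 or in FC24 against CC30, and 0% of all probe sets were called in either. An unadjusted p under 0.05 was reached by 1 member at 12 h, Sult1a1, against 4.06% of all probe sets, and by 0 at 24 h, against 4.31%. At 12 h Sult1a1, a sulfotransferase of phenolic compounds, differed by 0.13 ± 0.06 (SE, limma adjusted p = 1) and Plin4 by 0.22 ± 0.11 (limma adjusted p = 1). Xdh (-0.02 ± 0.10), Hif3a (0.02 ± 0.10) and Mertk (-0.01 ± 0.05) had 95% confidence intervals that contained 0, reaching up to 0.18, 0.22 and 0.09. At 24 h all 10 differences lay between -0.04 and 0.09. The training difference at 4 h minus that at 12 h was called for 0 members (0% of all probe sets), with an unadjusted p under 0.05 for 4, and for 4.44% of all probe sets: Tsc22d3 (0.24 ± 0.08, SE), Xdh (0.33 ± 0.12), Mertk (0.18 ± 0.07) and Hif3a (0.25 ± 0.11), all with a limma adjusted p of 0.999.

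For 7 of the 10 genes, the largest difference over the 12 comparisons lay between dark and light, the exceptions being Sgk1, Ddit4 and Cdkn1a. In trained mice 7 of the 10 genes were higher in FC12 than in FC24, namely Plin4, Hif3a, Xdh, Tsc22d3, Mertk, Fkbp5 and Sult1a1, while 2.11% of all probe sets were called higher. In untrained mice the same 7 genes were higher in CC12 than in CC30, where 2.05% of all probe sets were called higher. The comparisons share no mouse, and FC12 and FC24 also differ in the time since training. Sgk1, Ddit4 and Cdkn1a were not called in either. With all 8 groups in one fit, Ddit4 was called higher in CC12 than in CC30 (0.21, limma adjusted p = 0.0795). The median over the 10 members was 0.31 in trained and 0.28 in untrained mice, while the median over all probe sets was 0.00 in both comparisons.

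Plin4 spanned 5.63, 5.99 and 6.25 in FC12 (lowest, median and highest), against 4.89, 5.04 and 5.30 in FC24, and the groups did not overlap. In untrained mice it spanned 5.25, 5.79 and 6.17 in CC12, against 4.83, 5.09 and 5.29 in CC30, with 8 of 9 CC12 mice above every CC30 mouse. It was 1.85 times as high in FC12 as in FC24 (log2 0.88 ± 0.08, SE, limma adjusted p = 1.22e-05), the third largest difference of the array, and 1.57 times as high in CC12 as in CC30 (0.65 ± 0.09, limma adjusted p = 0.000887).

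Hif3a spanned 5.67, 5.89 and 6.10 in FC12, against 5.24, 5.31 and 5.43 in FC24, without overlap. In CC12 it spanned 5.59, 5.88 and 6.41, against 5.05, 5.38 and 5.60 in CC30, and 7 of 9 CC12 mice lay above every CC30 mouse. The log2 differences were 0.56 ± 0.06 in trained mice (SE, limma adjusted p = 2.77e-05) and 0.53 ± 0.10 in untrained mice (limma adjusted p = 0.00773). Xdh was higher by 0.51 ± 0.08 in FC12 than in FC24 (SE, limma adjusted p = 0.00113) and by 0.49 ± 0.10 in CC12 than in CC30 (limma adjusted p = 0.00893). In both comparisons 8 of 9 dark-phase mice lay above every light-phase mouse, and 1 lay within the light-phase range.

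Tsc22d3 spanned 7.06, 7.19 and 7.39 in FC12, against 6.51, 6.83 and 7.02 in FC24, and 7.15, 7.23 and 7.58 in CC12, against 6.71, 6.83 and 7.03 in CC30. Neither pair of groups overlapped. The differences were 0.39 ± 0.06 in trained (SE, limma adjusted p = 0.00298) and 0.45 ± 0.05 in untrained mice (limma adjusted p = 0.000178). Mertk, whose groups did not overlap in either comparison, differed by 0.32 ± 0.04 in trained (SE, limma adjusted p = 0.000281) and 0.31 ± 0.04 in untrained mice (limma adjusted p = 0.000748). In all, 5 members lay above without overlap in FC12 against FC24 (Plin4, Hif3a, Fkbp5, Mertk and Tsc22d3), as did 0.318% of all probe sets, and 2 in CC12 against CC30, as did 0.2%.

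Fkbp5 spanned 7.46, 7.52 and 7.64 in FC12, against 6.99, 7.24 and 7.37 in FC24, and 7.32, 7.53 and 7.62 in CC12, against 7.08, 7.25 and 7.37 in CC30. Only the trained groups stayed free of overlap. The differences were 0.30 ± 0.04 in trained (SE, limma adjusted p = 0.000772) and 0.25 ± 0.04 in untrained mice (limma adjusted p = 0.00525). Sult1a1 differed by 0.31 ± 0.07 in trained (SE, limma adjusted p = 0.0196) and 0.21 ± 0.05 in untrained mice (limma adjusted p = 0.0329), with overlap in both. Of the 3 genes not called in the pairwise fits, Ddit4 differed by 0.13 ± 0.06 in trained and 0.21 ± 0.08 in untrained mice (SE). Sgk1 differed by 0.12 ± 0.04 and 0.05 ± 0.06, and Cdkn1a by -0.06 ± 0.04 and -0.07 ± 0.05 (SE). The difference between the trained and the untrained dark-phase differences was called for 0 members (0% of all probe sets), and 0 had an unadjusted p under 0.05, against 3.94% of all probe sets. It was widest for Plin4, at 0.23, with a 95% confidence interval of -0.03 to 0.49.

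**Figure D3:**
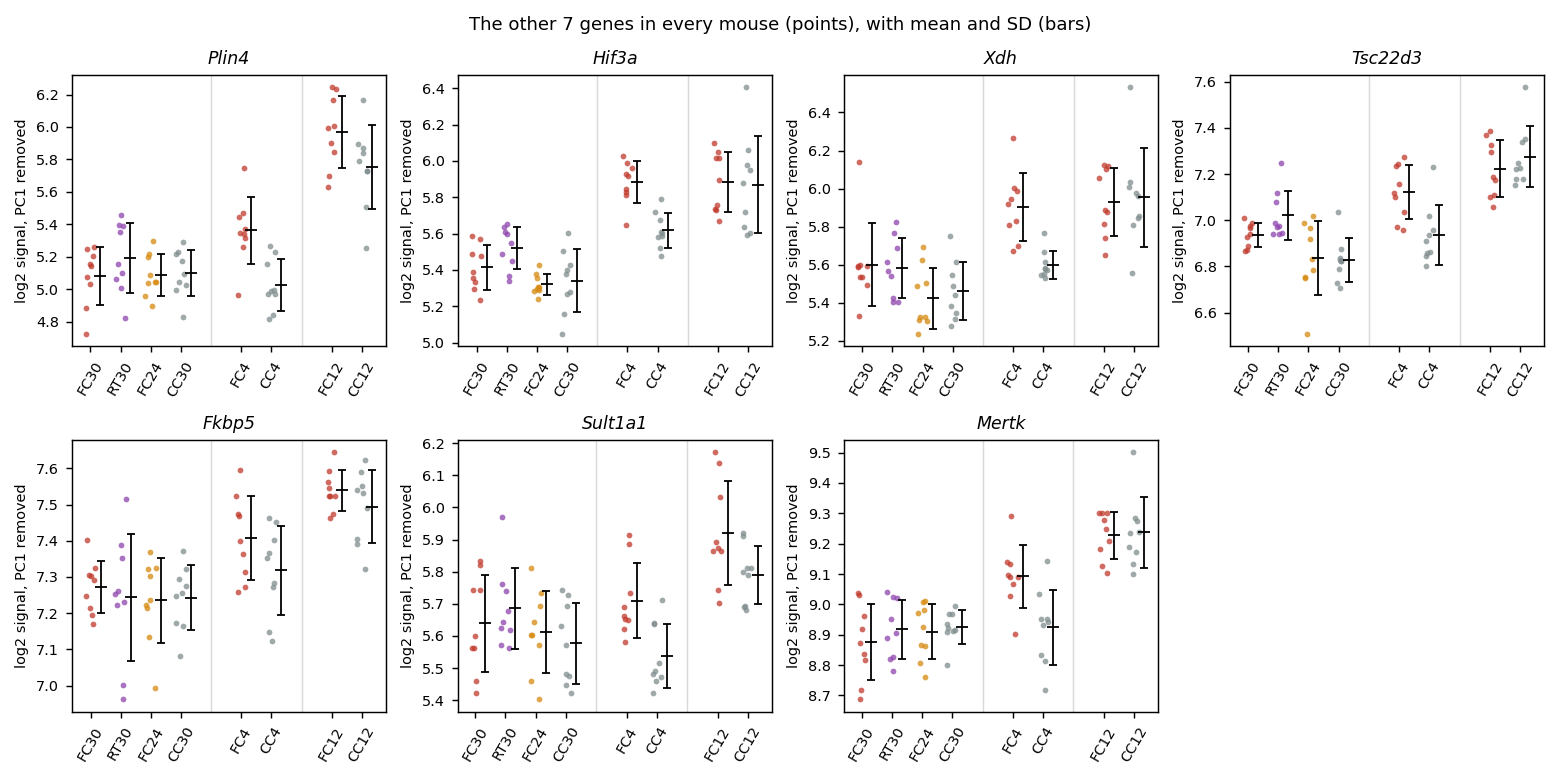
Log2 signal (vertical axes, first principal component removed) of the other 7 genes in the 9 mice of each group, with mean and SD. FC12 and CC12 have the highest means of every gene shown except Hif3a, where FC4 lies between them, and FC4 lies above CC4 on average in all 7 panels.

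**Figure D4:**
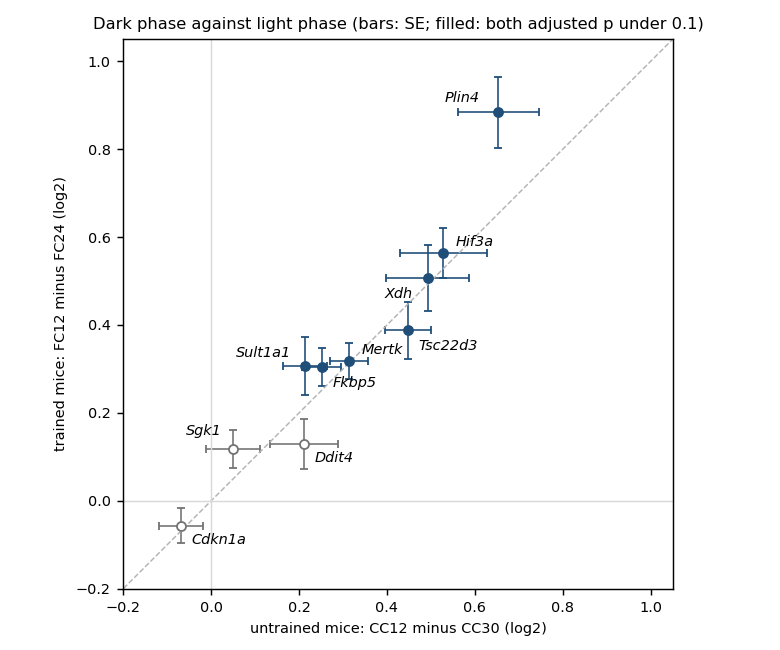
Log2 fold change of the 10 genes in untrained mice (CC12 minus CC30, horizontal) and trained mice (FC12 minus FC24, vertical), with SE. The 7 filled genes were called in both comparisons and lie near the dashed line of equality, apart from Plin4, at 0.88 in trained and 0.65 in untrained mice.

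The step to the dark phase was also taken from the 4 h groups, which had been dissected in the light. In CC12 against CC4, 6 members were called higher (Plin4, Tsc22d3, Mertk, Sult1a1, Xdh and Fkbp5), as were 2.54% of all probe sets. The Fkbp5 call was lost without replicate 8 of CC12 (limma adjusted p = 0.129). Hif3a was not called (0.25 ± 0.09, SE, limma adjusted p = 0.165), but it was called without the arrays that stood apart (0.31, limma adjusted p = 0.0811), with array weights (limma adjusted p = 0.089) and with all 8 groups in one fit (limma adjusted p = 0.0184). In FC12 against FC4 only Plin4 (0.61 ± 0.09, SE, limma adjusted p = 0.00186) and Sult1a1 (0.21 ± 0.06, limma adjusted p = 0.0969) were called, with 2.51% of all probe sets called higher. The difference was 0.00 for Hif3a (95% confidence interval -0.13 to 0.14) and 0.03 for Xdh (-0.14 to 0.19), and their FC12 medians were 5.89 and 5.88, against an FC4 median of 5.92 for both. The Sult1a1 call was lost when no component was removed (limma adjusted p = 0.102). Mertk differed by 0.14 ± 0.04 (SE, limma adjusted p = 0.111) and was called without the arrays that stood apart (0.15, limma adjusted p = 0.0944). Between the 2 light-phase control groups, CC4 against CC30, 0 members were called by limma or the methods' t-test and 1 by local false discovery rates (limma called 0.0731% of all probe sets), and 4 had an unadjusted p under 0.05, as had 6.21% of all probe sets. The 2 smallest p belonged to Hif3a (0.28 ± 0.06, SE, limma adjusted p = 0.228), with 9 of 9 CC4 mice above the CC30 mean, and Cdkn1a (-0.19 ± 0.05, limma adjusted p = 0.451), with 8 of 9 below it. With all 8 groups in one fit, Hif3a was called here (limma adjusted p = 0.0907).

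The order of the 8 group means differed between genes. For Plin4, Hif3a, Fkbp5 and Sult1a1 the highest mean was that of FC12, and for Xdh, Tsc22d3 and Mertk that of CC12. For Sgk1, Ddit4 and Cdkn1a it was that of RT30, followed by FC30. The lowest mean was in CC30 or FC24 for Sgk1, Ddit4, Fkbp5, Hif3a, Tsc22d3 and Xdh, in CC4 for Plin4, Sult1a1 and Cdkn1a, and in FC30 for Mertk. Among the 70 pairs of neighbours in these orders, the gap between the means exceeded the larger of the 2 SDs in 4. These were CC12 over FC4 for Plin4, FC4 over FC30 for Xdh, and FC12 over FC4 and FC4 over CC30 for Mertk. For the other pairs the order of neighbours is within the spread of the mice.

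The receptors and their partners were read in the same comparisons. Nr3c1, the glucocorticoid receptor, was called by limma in 0 of the 12 comparisons and had an unadjusted p under 0.05 in 3, with differences from -0.10 to 0.02. Hsd11b1, the enzyme that regenerates active corticosterone in cells, was not called either, with differences from -0.12 to 0.01. Nr3c2, the mineralocorticoid receptor, was lower in CC12 than in CC30 (-0.18 ± 0.04, SE, limma adjusted p = 0.0186) and than in CC4 (-0.13 ± 0.04, limma adjusted p = 0.0606), and in trained mice its difference of FC12 from FC24 was -0.08 ± 0.04 (limma adjusted p = 0.374). The other 7 receptor cofactors and chaperones matched were called in 0 comparisons.

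Of 20 further genes known as glucocorticoid-responsive, 19 were matched. In FC30 against CC30, 3 of the 19 were higher and 0 lower: Dusp1, a phosphatase of MAP kinases (0.75 ± 0.07, SE, limma adjusted p = 2.06e-05), Per1, a circadian clock gene (0.26 ± 0.05, limma adjusted p = 0.0166), and Nfkbia, the inhibitor of NF-kappaB (0.26 ± 0.04, limma adjusted p = 0.0054). The same 3 were higher in RT30 than in CC30, and 0.186% of all probe sets were called higher in each comparison. In RT30 against FC24, 2 of the 19 were called higher, as were 0.121% of all probe sets. At 4 h 0 of the 19 were called, and their median difference was 0.04. In the dark, 7 of the 19 were higher and 1 lower in FC12 than in FC24, where 2.11% of all probe sets were called higher and 1.08% lower. In CC12 against CC30, 4 were higher and 1 lower, with 2.05% of all probe sets called higher and 1.44% lower. Per1, Nfkbia and Errfi1 were among the higher genes in both, at 0.17 to 0.25. Over the whole list of 19, differences ran from -0.20 to 0.25 in CC12 against CC30, with a median of 0.05. They ran from -0.14 to 0.23 in FC12 against FC24, with a median of 0.06. Per1 and Nfkbia were thus called both at 30 min and in the dark, which none of the 10 members was in the pairwise fits of these comparisons. Of the 19, 2 were higher and 2 lower in CC12 than in CC4 (2.54% and 2.47% of all probe sets), with differences from -0.28 to 0.20. In FC12 against FC4, 4 were higher and 2 lower (2.51% and 1.71% of all probe sets), with differences from -0.24 to 0.17. The 5 genes of neuronal activity (Fos, Arc, Egr2, Nr4a1 and Npas4) were all higher in FC30 than in CC30 (0.186% of all probe sets), with a median of 0.82. All 5 were also higher in RT30 than in CC30, with a median of 0.77. Among dark-phase comparisons, 3 of the 5 were higher in CC12 than in CC4 (median 0.24, 2.54% of all probe sets). The count was 1 in CC12 against CC30 (2.05%), 1 in FC12 against FC4 (2.51%) and 0 in FC12 against FC24 (2.11%).

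Markers of other cell types were read beside the dark-phase rise. In CC12 against CC30 the choroid plexus markers were all positive (5 of 5, median 0.40, 0 called), with mean levels of 6.40 to 8.93 in CC12 and 6.09 to 7.89 in CC30. In FC12 against FC24, where the same 7 members rose, 1 of 5 was positive and their median was -0.07, with mean levels of 5.90 to 8.17 in FC12 and 6.15 to 8.56 in FC24. With this level as a covariate, 6 members were called in CC12 against CC30, the loss being Sult1a1 (0.18, limma adjusted p = 0.113), and 7 in FC12 against FC24. Astrocyte markers were called in neither comparison (0 of 5), with mean levels of 9.45 to 9.59 in CC12 and 9.52 to 9.62 in CC30. Of the 3 dentate granule cell markers, 2 were higher in FC12 than in FC24, Dsp (0.47 ± 0.06, SE, limma adjusted p = 0.000363) and Prox1 (0.20 ± 0.05, limma adjusted p = 0.0537), and 0 were called in CC12 against CC30. Their mean level was 8.86 to 9.15 in FC12, against 8.71 to 8.89 in FC24, and 8.84 to 9.06 in CC12, against 8.72 to 9.07 in CC30. Opalin, 1 of 3 oligodendrocyte markers, was lower in both comparisons (-0.48 in trained and -0.62 in untrained mice). Of the 4 endothelial markers Slco1a4 was higher in both, Cldn5 was lower in FC12 than in FC24 and Pecam1 lower in CC12 than in CC30. Of the 5 microglial markers Cx3cr1 was lower in CC12 than in CC30 (-0.25), and 0 were called in FC12 against FC24. The part of these markers in the members' differences was not tested beyond the choroid plexus covariate.

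Mice of the same group that were high in one of these genes tended to be high in others. Group means were subtracted and the 45 pairs of members correlated over the 72 mice, with 100000 permutations of mice within groups. Pearson's r was positive for 41 of the 45 pairs, with a median of 0.18, and 19 pairs had a Benjamini-Hochberg adjusted p under 0.1, of which 14 also passed with Spearman's rho. Mertk with Cdkn1a was the closest pair (r = 0.56, permutation p = 2e-05, adjusted p = 0.0009; rho = 0.50, permutation p = 7e-05, adjusted p = 0.00315), and r was 0.54 without the 2 mice farthest from the median of Cdkn1a. Mertk with Tsc22d3 followed (r = 0.49, permutation p = 5e-05, adjusted p = 0.00113; rho = 0.36, permutation p = 0.00298, adjusted p = 0.0335), and r was 0.39 without the 2 mice farthest from the median of Tsc22d3. Ddit4 correlated with Mertk (r = 0.44, permutation p = 0.00027, adjusted p = 0.00405; rho = 0.30, permutation p = 0.0114, adjusted p = 0.0491) and with Fkbp5 (r = 0.41, permutation p = 0.00041, adjusted p = 0.00461; rho = 0.39, permutation p = 0.00108, adjusted p = 0.0243). Without the 2 mice farthest from the median of Ddit4, r was 0.35 with Mertk and 0.36 with Fkbp5. Of the 9 pairs of Sult1a1, those with Cdkn1a (r = 0.36, permutation p = 0.00357, adjusted p = 0.0146; rho = 0.35, permutation p = 0.00456, adjusted p = 0.041) and Fkbp5 passed, while Plin4 and Sgk1 had 1 pair each that passed. The pair of Sult1a1 and Fkbp5 was the only negative pair among the 19 (r = -0.25, permutation p = 0.0331, adjusted p = 0.0784), and it did not pass with rho (rho = -0.25, permutation p = 0.04, adjusted p = 0.113). These values come from 1 array for each mouse, so array quality is shared by both members of a pair. With the first 2 principal components removed, 13 pairs passed. Pairs of other genes were not correlated, so whether these counts are particular to the members was not tested.

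**Figure D5:**
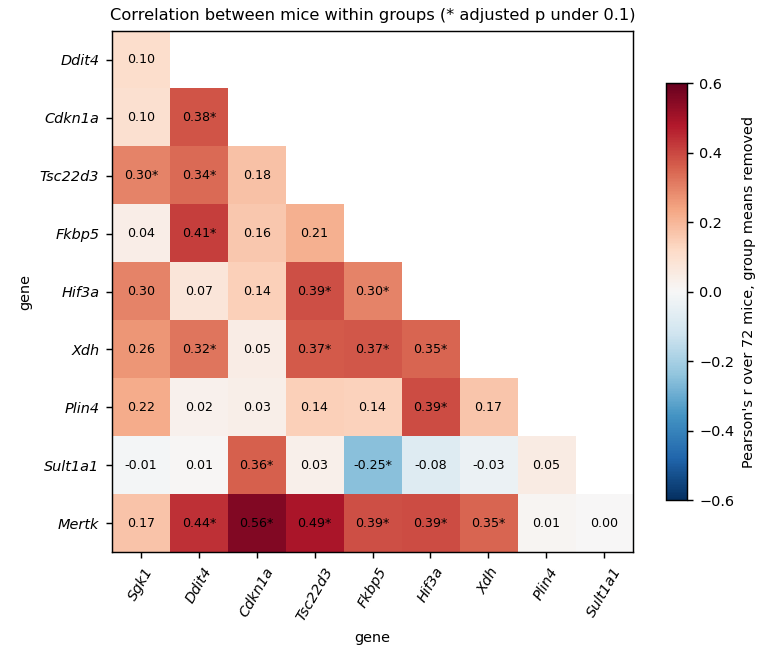
Pearson's r between members over 72 mice after subtraction of group means (colour and number), with genes on both axes. Stars mark the 19 pairs with an adjusted p under 0.1, and the Mertk row holds the closest pairs, up to 0.56 with Cdkn1a.

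Over all 72 arrays, group differences included, the probe sets of 1 symbol most like each member were ranked by Pearson's r as a description. The dark-phase members shared neighbours: Mfsd2a was the gene most like Plin4 (r = 0.84), Sult1a1 (0.67) and Mertk (0.85), and Prr5 the gene most like Hif3a (0.80), Tsc22d3 (0.78) and Fkbp5 (0.75). For Xdh it was Etnppl (0.75). Members also ranked among each other's 3 closest genes, as Tsc22d3 for Hif3a (0.76), Hif3a for Xdh (0.75) and Mertk for Tsc22d3 (0.78). The 3 members with their highest mean in RT30 had other neighbours. Sgk1 was most like Zfp189 (0.55), Btg2 (0.51) and Ccn1 (0.50), Ddit4 like Dusp5 (0.70), Gadd45b (0.67) and Errfi1 (0.64), and Cdkn1a like the activity genes Egr1 (0.67) and Egr4 (0.61), then Midn (0.60).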

How the data were processed

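Each of the 72 mice gave 1 RNA sample and 1 whole-transcript array. The authors averaged 2 sequential scans and summarised the probes with RMA in Affymetrix Power Tools, and the deposited values are log2 signals after background correction and quantile normalization. They hold no counts, so depth does not apply, and the number of arrays limits the precision (median SE of a log2 fold change 0.0487 to 0.0545 over the 12 comparisons). Symbols came from the platform annotation, which gives 1 symbol for 21218 of 35556 probe sets.

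Groups were taken from the labels. The first principal component of the probe-set-centred values was subtracted, a step the study's methods also name, and each of the 12 pairs of groups was fitted separately (limma 3.58.1, R 4.3.3). The share of variance this component holds here differs from the one the methods give, so the subtracted component may not be the same. All p-values are two-sided. Pairs of effects were compared with 4 interaction terms. Correlations, motif searches and figures used Python 3.11.15, numpy 2.4.6, scipy 1.17.1, pandas 2.3.3 and matplotlib 3.10.9. The fits were tested on simulated data. The 10 members, the gene lists, the marker lists and the naming rule (all members, and of a list at most the 4 largest changes that passed, with the receptors and Hsd11b1 always) were chosen with earlier results of these data known. Alternatives were 0 or 2 components removed, all 8 groups in one fit, the component taken from within-group residuals, the methods' t-test with Benjamini-Hochberg adjustment or local false discovery rates, an intensity trend, array weights, fewer arrays or probe sets, the replicate block and, added after the data were seen, a choroid plexus covariate and the omission of 1 CC12 mouse.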

Additional observations from a re-analysis of the deposited data

Results flagged for a closer look

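Within the groups of 9, the gap of the highest or lowest mouse to its nearest neighbour was set against the whole range. It was wide in 8 of the 80 combinations of gene and group. Chance alone gives about 1 in 20 for normal values. The 80 combinations share the same mice and are not independent, so their count cannot be weighed against that rate. The cause was not tested for any of the 8. Replicate 8 of CC12 was apart and highest in Xdh (6.53, next 6.03), Tsc22d3 (7.58, next 7.35) and Mertk (9.50, next 9.29). This mouse had the highest signal of its group in 8 of the 10 genes, all but Cdkn1a and Sult1a1, and was not among the arrays that stood apart on a principal component. Replicate 8 of CC4, which was among those arrays, was highest in Tsc22d3 (7.23, next 7.02). Replicate 6 of FC30 was highest in Xdh (6.14, next 5.60), replicate 3 of FC4 in Ddit4 (7.77, next 7.42) and replicate 3 of RT30 in Sult1a1 (5.97, next 5.76). Replicate 4 of CC30 was lowest in Mertk (8.80, next 8.91). Of 40 tests of whether a member's effect differed between time points or between trained and untrained mice, 0 had a limma adjusted p under 0.1.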

How the results depend on the processing

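Single members had 1590 recomputed fold changes under 14 settings. Of these, 1552 stayed on their side of the threshold, 26 newly passed it and 12 no longer did. Among those called in the main or the alternative fit, 0 reversed. A change of sign without a call was not counted as reversed, as for Plin4 in FC30 against CC30 (-0.02 to 0.04 over the settings). The count of members called was 7 in every setting for FC12 against FC24, 6 to 8 for CC12 against CC30, 5 to 7 for CC12 against CC4, and 0 throughout for FC12 against CC12, FC24 against CC30 and RT30 against FC30. All probe sets called ran from 723 to 1451, 705 to 1543 and 1231 to 2862 in the first 3 of these comparisons. They ran from 0 to 1 in FC24 against CC30 and were 0 in FC12 against CC12 and RT30 against FC30. Without replicate 8 of CC12 the count of members called was 7 for CC12 against CC30 (1115 of all probe sets) and 5 for CC12 against CC4 (1761). It was 0 for FC12 against CC12 (0), and Fkbp5 was lost in CC12 against CC4 (limma adjusted p = 0.129). Counts moved in the cases below, where the number of all probe sets called stands in parentheses, and the cause was not tested. FC12 against FC4, with 2 members called (1500), had 4 with 2 components removed (1841). It also had 4 without the dimmest 25% of probe sets (1933) or with probe sets of 1 symbol only (1733), both testing fewer probe sets. It had 1 with no component removed (1237), by the t-test (1683), by local false discovery rates (383) or with the replicate block (927). RT30 against CC30, with 2 (99), had 3 with 2 components removed (125) or by local false discovery rates (287), the third being Tsc22d3. RT30 against FC24, with 1 (54), had 3 by local false discovery rates (176). It had 2 with array weights (75), 2 components removed (62), no dim probe sets (65) or single symbols (56). CC4 against CC30, with 0 (26), had 1 with all 8 groups in one fit (108) or by local false discovery rates (185). FC4 against CC4, with 0 (0), had 1 with 2 components removed (2). FC30 against CC30, with 2 (91), had 1 with the choroid plexus covariate (47). The number of correlated pairs, 19, was 20 with no component removed, 13 with 2 removed and 17 without the arrays that stood apart.

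The labels number the mice of each group 1 to 9. Same-numbered mice deviated together by r = -0.16 to 0.38, over 0.1 in 15 of 108 pairs. No rate for unrelated mice was set beside this count, so it cannot tell whether a number marks a shared experiment. The labels do not say so either, and the numbers were not taken to pair the mice. With the replicate number as a block, 1 member was called in FC30 against CC30 (Sgk1, with Ddit4 at a limma adjusted p of 0.107), 0 in RT30 against CC30 (Sgk1 0.137, Ddit4 0.296) and 1 in FC12 against FC4 (Plin4), and the other counts were unchanged. The alternative of another probe set could not be run, since each member has 1.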
